A study of Mus musculus with 18 samples.

Results

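Naive dura mater, the outer membrane around the brain, was compared between Kit-mutant and wild-type male mice, with attention to differences that were present whether or not the mutant mice had received mast cells. The members were 6 arrays of 18, each from the dura of 1 mouse and chosen by their labels: 3 from naive mast cell-deficient mice of the strain WBB6F1-KitW/W-v and 3 from naive engrafted mice of the same strain. Engrafted mice had been given mast cells by vein 8 to 10 weeks earlier. They were set against 3 naive WBB6F1-Kit+/+ mice. The other 9 arrays came from mice of the same 3 categories, 3 of each, 2 days after a 30 minute closure of the middle cerebral artery with a filament. The labels give an age of 17 to 21 weeks at surgery, with naive mice matched for age. All mice were perfused with cold saline before the dura was removed, and no dura was pooled. The W and W-v alleles lie in the germ line, so the cells of both mutant groups carry them, the transferred mast cells aside. Genotype and anything else that differs between the 2 kinds of mice cannot be told apart.

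Kit is the receptor for stem cell factor. Mast cells, melanocytes and blood stem and progenitor cells rely on it, and mice with the W and W-v alleles lack mast cells, are short of coat pigment cells and are anaemic. The dura lies against the inner face of the skull and holds fibroblasts, collagen, macrophages, lymphocytes and plasma cells, and osteoclasts and osteoblasts work at the adjoining bone surface. Osteoclasts arise from myeloid precursors under the cytokine Rankl (Tnfsf11) and dissolve bone with acid and proteases. The vitamin D receptor (Vdr) is a nuclear receptor through which the hormone acts on bone and on many immune cells.

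Mast cell genes followed the labels. Mcpt2, a mast cell chymase, stood at log2 levels of 9.61 to 10.05 in naive wild-type, 4.93 to 5.13 in naive deficient and 8.64 to 10.77 in naive engrafted dura. All values here are log2 array levels or differences between them, on which 1 unit is a doubling. The 15 genes of the dura and arachnoid list were bright, with list means of 11.4 to 11.7 in the naive arrays. Choroid plexus tissue, which makes the transthyretin gene Ttr, was uneven. Ttr stood between 9.03 and 10.17 in 5 arrays and at 13.03 or above in the other 13, and the low arrays were naive deficient 1 and 3, naive engrafted 3, stroke wild type 2 and stroke deficient 2. No naive wild-type array was low. The mean of the 10 measured choroid plexus genes was 11.38 to 11.45 in naive wild-type, 8.65 to 11.76 in naive deficient and 8.70 to 11.39 in naive engrafted dura. The pooled difference of Ttr was -1.87 with a standard error (SE) of 1.23, and 0 of the 10 genes reached even an unadjusted p under 0.05 in limma. Results that move with these arrays are given without them. In whole tissue, fewer cells of a type and less RNA per cell cannot be told apart.

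The main comparison was pooled: the mean of the deficient and engrafted groups against wild type. A probe set passed at a Benjamini-Hochberg adjusted p under 0.05 in limma over all 21640 probe sets with 1 gene symbol. In it 2 probe sets passed (0.00924%): Vdr was higher and Mcpt2 lower in the mutants. A gene outside the mast cell list counted as shared where it passed there and each mutant group differed from wild type the same way at an unadjusted p under 0.05, and 1 gene (0.00502%), Vdr, met that rule. Taken singly, neither mutant group passed for Vdr (adjusted p = 0.202 in deficient and 0.0647 in engrafted dura). At an unadjusted p under 0.05 there were 3412 probe sets (15.8%), where 1082 would be expected if nothing differed. At an adjusted p under 0.10, a setting chosen after seeing the data, there were 29 (0.134%). Without the mast cell list these were 23 genes, 15 higher and 8 lower in the mutants. In all 23, the deficient and the engrafted group each differed from wild type the same way at an unadjusted p under 0.05. Those 2 differences share the 3 wild-type arrays, and their likeness is not counted as support. Between the engrafted and deficient groups 4 probe sets passed (0.0185%), all of them mast cell genes, and 1016 had an unadjusted p under 0.05 (4.7%).

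Vdr (probe set 10432032) stood at 8.34, 8.12 and 7.71 in wild-type dura, at 8.85, 8.90 and 8.78 in deficient dura and at 9.02, 9.17 and 9.09 in engrafted dura. Every mutant array lay above every wild-type array. The pooled difference was 0.91 ± 0.13 (SE), a level 1.88-fold higher (limma adjusted p = 0.0267, 95% interval 0.64 to 1.18), made up of 0.79 in deficient and 1.04 in engrafted dura. Engrafted minus deficient was 0.25, with an interval of -0.06 to 0.56. Every difference given for the stroke mice is likewise mutant minus wild type, among those mice alone, and stroke was not compared with naive dura within a genotype. In the stroke mice, which share no array with the naive ones, Vdr stood at 8.22 to 8.36 in wild type and at 8.41 to 9.04 in the mutants. Again no arrays overlapped, but the difference was 0.36 and did not pass (adjusted p = 0.159). The naive effect minus the stroke effect was 0.55 and did not pass either (adjusted p = 0.27). Without the 5 arrays low in Ttr, in a fit that keeps 1 naive deficient array, the naive Vdr difference was 0.94 (adjusted p = 0.283). Leaving out single naive arrays gave differences of 0.74 to 1.05 with adjusted p of 0.0117 to 0.12, and the call was lost without wild type 2 or 3, deficient 1 or 2, or engrafted 2 or 3.

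The next genes by p did not pass and are given as values. Acp5 is described with the osteoclast genes. B4galnt3, a glycosyltransferase, was higher by 0.36, Ttc28 by 0.34 and Prss46, a serine protease near the dim end of the array, by 0.41 (adjusted p = 0.0583 each). Other probe sets of Ttc28 gave smaller differences, of 0.22 and 0.17 (adjusted p = 0.264 and 0.272). Among the lower genes, Rasd1, a small GTPase of the Ras family that responds to glucocorticoids, differed by -0.68. Slc25a25, a mitochondrial carrier of ATP-magnesium and phosphate, differed by -0.71, Bsph1 by -0.63 and Olfr153, an olfactory receptor gene, by -0.52 (adjusted p = 0.0583 each). The zinc finger gene Zkscan2 differed by -0.50 (adjusted p = 0.0672). In each of these genes all 6 mutant arrays lay on one side of the 3 wild-type arrays, as they did above wild type in 710 genes (3.56%) and below in 682 (3.42%) of the 19937 tested. Bsph1 and Olfr153 lay at 4.93 to 6.18 in the naive arrays, below or near the arrays' lower quartiles (6.09 to 6.24), where a signal above background is not established.

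Of the 5 lower genes, Rasd1 also differed between genotypes in the stroke mice. Its naive levels were 8.80, 9.37 and 9.0 in wild type, 8.50, 8.30 and 8.56 in deficient and 8.46, 8.09 and 8.37 in engrafted dura. After stroke they were 8.97, 8.71 and 8.89 in wild type, 8.35, 8.30 and 8.34 in deficient and 8.23, 8.28 and 8.40 in engrafted dura. No mutant array reached a wild-type array in either condition. The stroke difference was -0.54 and passed (adjusted p = 0.0161). Slc25a25 stood at 9.51 to 9.69 in naive wild type and 8.62 to 9.21 in naive mutants, but the genotype difference was 0.03 in the stroke mice (adjusted p = 0.95). Its naive effect minus its stroke effect was -0.73 and did not pass (adjusted p = 0.0838). For Zkscan2 that test passed, at -0.64 (adjusted p = 0.0313).

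Several osteoclast genes were higher in the mutants without passing. Acp5 (probe set 10591739), the tartrate-resistant acid phosphatase that marks osteoclasts, stood at 10.09, 10.76 and 10.45 in wild type, at 11.67, 11.25 and 11.43 in deficient and at 11.64, 11.59 and 11.77 in engrafted dura. All 6 mutant arrays lay above wild type, and the mutant groups overlapped each other. The pooled difference was 1.12 ± 0.18 (SE), or 2.18-fold (adjusted p = 0.0583, interval 0.74 to 1.5), with 1.02 in deficient and 1.23 in engrafted dura. Engrafted minus deficient was 0.22, with an interval of -0.22 to 0.66. Atp6v0d2, a subunit of the proton pump that acidifies the bone surface, stood at 7.67, 8.13 and 8.18 in wild type and at 8.76 to 9.50 in the mutants, a difference of 1.29 (adjusted p = 0.0883). Mmp9, a gelatinase made by osteoclasts and by neutrophils, stood at 9.92, 10.19 and 9.92 in wild type and at 10.69 to 11.20 in the mutants, a difference of 1.00 (adjusted p = 0.0672). Oscar, an immunoglobulin-like receptor that co-stimulates osteoclast formation, stood at 7.22, 7.69 and 7.55 in wild type and at 7.8 to 8.25 in the mutants, a difference of 0.65 (adjusted p = 0.0672). Wild-type and mutant arrays did not overlap in any of these genes. The lowest mutant array of both Oscar and Atp6v0d2 was deficient 2, which was high in Ttr.

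Of the 16 genes of the osteoclast list, all of them measured, 0 passed in limma and 9 were higher at an unadjusted p under 0.05, where 7.24% of all genes were. In 9 genes all 6 mutant arrays lay above wild type, beside 3.56% of all genes. The median difference was 0.37, against -0.001 over all tested genes, with 0.29 in deficient and 0.41 in engrafted dura. The remaining 5 of the 9 were picked out after their values were seen. Ctsk, the collagen-degrading cathepsin K, was higher by 0.73 and Itgb3, an integrin subunit shared with platelets, by 0.51. Ocstamp and Dcstamp, both needed for the fusion of precursors, were higher by 0.42 and 0.39, and Calcr, the calcitonin receptor, by 0.35. Their adjusted p ran from 0.132 to 0.214. Nfatc1, the transcription factor that drives osteoclast formation, differed by 0.13 and Tnfrsf11a, which encodes the Rankl receptor, by 0.16. The carbonic anhydrase gene Car2 differed by -0.34, and was lowest, at 11.05 and 10.97, in deficient arrays 1 and 3, which were low in Ttr. Tm4sf19, which is in no list and outside the rule by which genes were named, was higher by 0.83 (adjusted p = 0.0731).

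**Figure D1:**
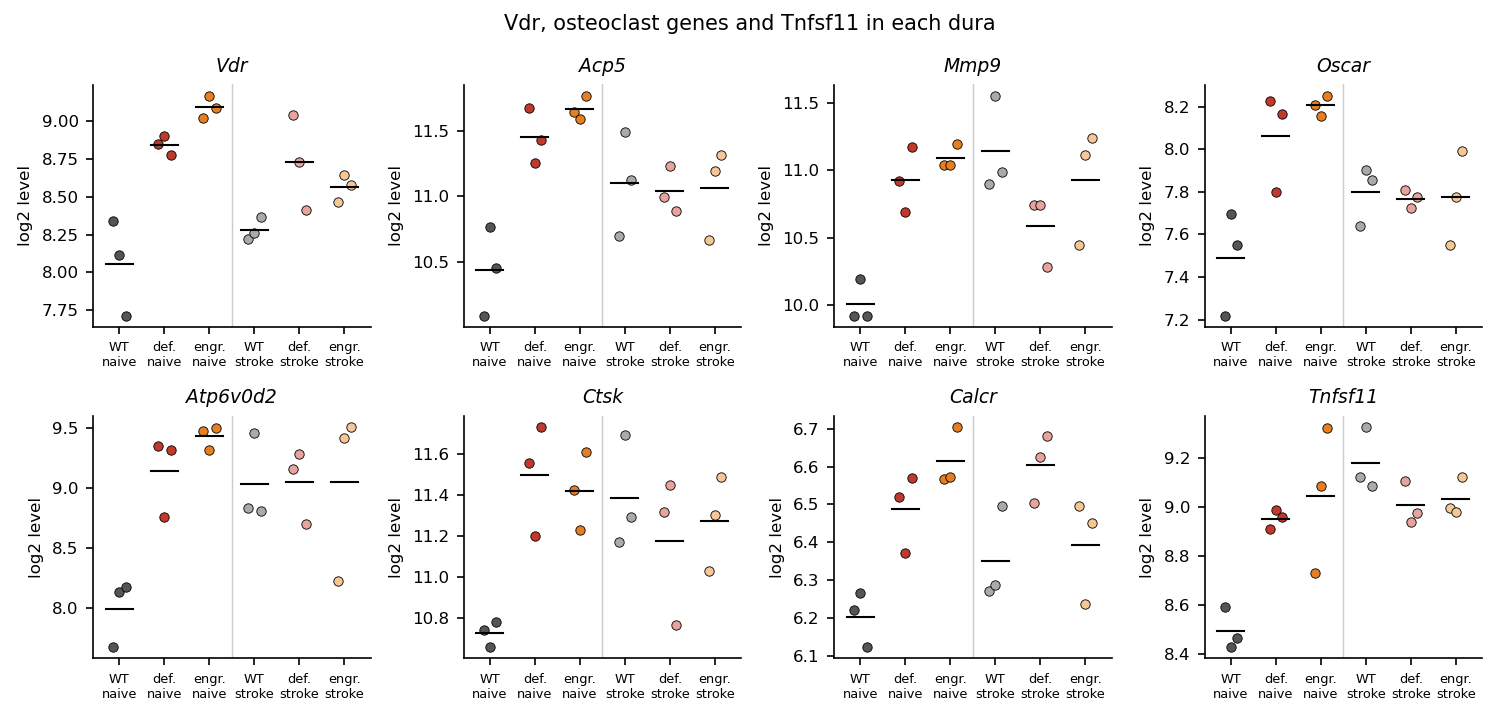
Log2 levels of Vdr, 6 osteoclast genes and Tnfsf11 (vertical axes, array log2 units) in the 18 dura samples; each point is 1 mouse and each bar the mean of 3, with naive groups left and stroke groups right of the grey line (WT, wild type; def., mast cell-deficient; engr., engrafted). In every panel the 3 naive wild-type points lie below all 6 naive mutant points, while after stroke wild-type and mutant points overlap in all panels but that of Vdr.

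The naive wild-type arrays were the low group for these genes, and the stroke arrays did not show the difference. The mean over the osteoclast list was 8.94 to 9.12 in naive wild-type, 9.29 to 9.43 in naive deficient and 9.44 to 9.56 in naive engrafted dura. After stroke it was 9.34 to 9.57 in wild type, 9.24 to 9.42 in deficient and 9.22 to 9.58 in engrafted dura. The median genotype difference after stroke was -0.05, and in 0 members did all mutant arrays lie above wild type (3.71% of all genes). In 1 member they all lay below (6.25%, beside 4.5% of all genes). Mmp9 was the member whose naive and stroke effects differed at the threshold. Its stroke difference was -0.39, and naive minus stroke was 1.39 (adjusted p = 0.0236), among 88 probe sets (0.407%) that passed this test. For Acp5 naive minus stroke was 1.18 and did not pass (adjusted p = 0.063), and for Atp6v0d2 it was 1.27 (adjusted p = 0.16). Without the 5 arrays low in Ttr, 8 of the 16 genes were higher at an unadjusted p under 0.05 and the median was 0.31. Acp5 then differed by 1.00 and Mmp9 by 0.86, with adjusted p of 0.283 and 0.314.

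The promoters shown are those of Vdr, which passed, and of the osteoclast genes Acp5 and Oscar, which did not. Promoter sequences of Mmp9 and Atp6v0d2 were not available. The sequences are RefSeq's for GRCm38.p6, from 250 bases before to 50 after the start, on the gene's strand. Capitals mark matches on either strand to the core of the myeloid factor PU.1 (GAGGAA), the E-box of the Mitf family (CATGTG), the AP-1 site (TGANTCA) and the GC box (GGGCGG). None of the matches overlap.
Vdr: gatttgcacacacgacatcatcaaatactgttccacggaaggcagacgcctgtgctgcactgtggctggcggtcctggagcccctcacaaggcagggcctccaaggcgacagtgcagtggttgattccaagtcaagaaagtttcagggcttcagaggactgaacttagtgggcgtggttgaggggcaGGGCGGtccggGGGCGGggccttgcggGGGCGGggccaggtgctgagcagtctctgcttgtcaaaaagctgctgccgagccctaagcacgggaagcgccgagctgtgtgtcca
Acp5: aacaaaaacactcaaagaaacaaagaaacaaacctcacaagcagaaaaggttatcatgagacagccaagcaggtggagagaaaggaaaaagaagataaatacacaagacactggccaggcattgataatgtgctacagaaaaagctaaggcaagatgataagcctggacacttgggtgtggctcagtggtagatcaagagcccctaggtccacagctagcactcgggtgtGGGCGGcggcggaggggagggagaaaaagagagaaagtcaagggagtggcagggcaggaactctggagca
Oscar: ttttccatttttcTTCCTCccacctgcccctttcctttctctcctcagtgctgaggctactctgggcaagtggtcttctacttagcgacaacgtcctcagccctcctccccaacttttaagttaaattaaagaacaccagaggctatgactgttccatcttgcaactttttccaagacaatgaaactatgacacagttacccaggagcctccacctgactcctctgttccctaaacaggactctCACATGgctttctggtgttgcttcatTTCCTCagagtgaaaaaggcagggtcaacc
The Vdr window lies at chr15:97908247-97908546, minus strand, and held 3 GC boxes. The Acp5 window, at chr9:22135697-22135996 on the minus strand, is the first of 3 starts listed for that gene and held 1 GC box. The others are not printed. The window at chr9:22131816-22132115 held 2 GC boxes, and that at chr9:22130549-22130848 held 2 matches, of which 1 was a GC box. The Oscar window, at chr7:3616108-3616407 on the minus strand, held 2 PU.1 cores and 1 E-box. Over all 32851 promoters of this length, 35.7% held a GC box, 28.3% a PU.1 core, 14.2% the E-box and 7.81% the AP-1 site. The matches describe letters, not binding.

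Some genes of bone formation were also higher without passing. Tnfsf11, the Rankl gene itself, stood at 8.60, 8.43 and 8.47 in wild type, 8.91, 8.99 and 8.96 in deficient and 8.73, 9.09 and 9.32 in engrafted dura. Every mutant array lay above wild type, and the difference was 0.50 (adjusted p = 0.0918). In the stroke mice the difference was -0.16. Tnfrsf11b, whose product osteoprotegerin blocks Rankl, differed by 0.19 (adjusted p = 0.395). Of 9 measured osteoblast and osteocyte genes, 5 were higher at an unadjusted p under 0.05 (55.6%, beside 7.24% of all genes), 0 were lower and 0 passed in limma, with a median of 0.30. The count was 2 and the median 0.18 without the 5 arrays low in Ttr, with the choroid plexus score as a covariate 2 and 0.18, and without wild type 1 or 3 the count was 3. Ibsp, the bone sialoprotein of mineralising matrix, stood at 9.34, 9.69 and 9.51 in wild type and at 9.71 to 11.04 in the mutants, a difference of 0.97 (adjusted p = 0.257). Sost, which encodes the osteocyte Wnt inhibitor sclerostin, was higher by 0.30 (adjusted p = 0.138), the alkaline phosphatase gene Alpl by 0.29 and Omd, a proteoglycan gene of bone, by 0.32. Of 14 measured genes in the list of Vdr and its targets, Vdr passed, 3 more were higher at an unadjusted p under 0.05 (28.6% with Vdr, beside 7.24% of all genes), and the median was 0.11. Those 3 were Tnfsf11, Trpv6, an epithelial calcium channel, at 0.24 and Lrp5, a Wnt co-receptor, at 0.17.

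Some matrix genes were higher by small amounts without passing. All 18 genes of the fibrillar matrix list had a positive naive difference, as 9920 of all 19937 genes did. Of the 18, 9 had an unadjusted p under 0.05 (50%, beside 7.24% of all genes), 8 had all mutant arrays above wild type (44.4%, beside 3.56%), and 0 passed in limma. The median was 0.25. Loxl1, an enzyme that crosslinks elastin, was higher by 0.35 (adjusted p = 0.149), the small proteoglycan gene Bgn by 0.23, the collagen gene Col12a1 by 0.25 and Sparc, a collagen-binding protein of bone and matrix, by 0.19. Without the 5 arrays low in Ttr the count at an unadjusted p under 0.05 was 2 and the median 0.15, with the choroid plexus score as a covariate the median was 0.13, and without wild type 3 the count was 5. In the stroke mice the median genotype difference was -0.03.

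Of 16 cartilage and tendon genes 6 were higher at an unadjusted p under 0.05 in naive dura (37.5%, beside 7.24% of all genes), with a median of 0.19. The count was 2 without the 5 arrays low in Ttr and 3 without wild type 3. Comp, a matrix protein of cartilage and tendon, stood at 10.36, 10.26 and 10.07 in wild type and at 10.51 to 11.12 in the mutants, a difference of 0.55 (adjusted p = 0.193). Among the stroke mice Comp was higher in the mutants by 1.22 (adjusted p = 0.000622). Fmod, the collagen-binding fibromodulin, was higher in the mutants by 0.25 in naive dura and by 0.83 in stroke dura (adjusted p = 6.17e-05), and the naive minus the stroke difference, -0.58, passed (adjusted p = 0.0392). These 2 genes do not stand for the list, whose median genotype difference in the stroke mice was 0.006, with 8 genes positive and 8 negative. There 4 passed higher (25%, beside 0.777% of all genes) and 1 lower (6.25%, beside 1.54%). Cilp2 and the aggrecan gene Acan were higher by 0.42 and 0.50 in naive dura without passing (adjusted p = 0.16 and 0.22). Skeletal muscle, another tissue that adjoins the skull, had 12 of 14 genes positive with a median of 0.29, 1 of them at an unadjusted p under 0.05 (7.14%, beside 7.24% of all genes). Its list means were 7.13 to 7.86 in wild type, 7.34 to 7.59 in deficient and 7.35 to 8.14 in engrafted dura, and its part in the bone and matrix results was not tested.

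**Figure D2:**
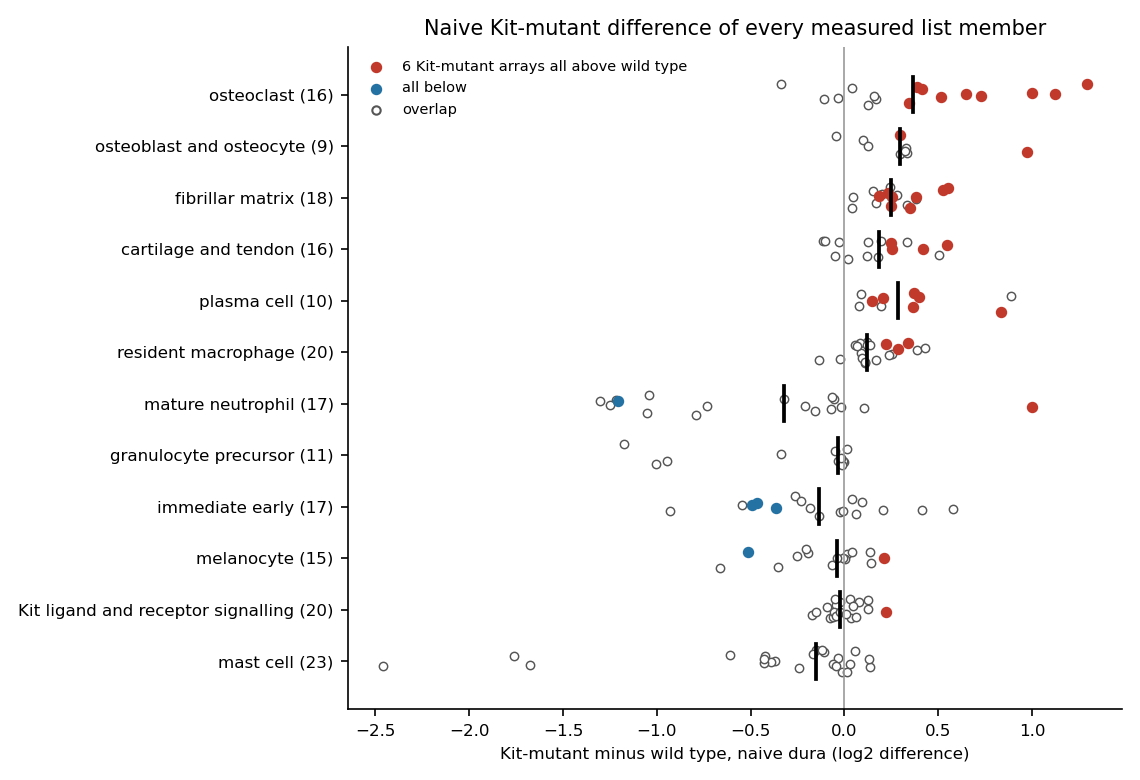
Naive Kit-mutant minus wild-type log2 difference (horizontal axis) of every measured gene in 12 lists (rows, with the number of genes); each point is 1 gene, red where all 6 mutant arrays lie above the 3 wild-type arrays, blue where all lie below and white where they overlap, and the black bar is the list's median. The osteoclast row reaches from -0.34 to 1.29 with 9 red points, and the mature neutrophil row reaches to -1.30, with Mmp9 alone at 1.00 on the other side.

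Several plasma cell genes were higher in both mutant groups without passing. Ighm, the heavy chain of immunoglobulin M, stood at 8.05, 8.12 and 7.84 in wild type, 8.79, 9.10 and 8.38 in deficient and 8.72, 8.80 and 9.24 in engrafted dura, with all mutant arrays above wild type. The difference was 0.84 (adjusted p = 0.163), and its 2 other probe sets gave 0.51 and 0.56. Of 10 plasma cell genes 6 were higher at an unadjusted p under 0.05 (60%, beside 7.24% of all genes), 6 had all mutant arrays above wild type (60%, beside 3.56%), 0 passed in limma, and the median was 0.29. Irf4, a transcription factor of plasma cells, was higher by 0.40, Mzb1, a chaperone for immunoglobulin, by 0.37 and the surface proteoglycan gene Sdc1 by 0.36. Jchain, the joining chain of polymeric antibodies, was picked out after its values were seen. It stood at 9.67, 10.32 and 9.12 in naive wild type and at 9.99 to 11.52 in naive mutants, which overlap (difference 0.89, adjusted p = 0.227). After stroke it stood at 8.71, 8.33 and 8.68 in wild type and at 9.17 to 10.32 in the mutants, a genotype difference of 1.33 (adjusted p = 0.0316). Without the 5 arrays low in Ttr 3 of the 10 genes had an unadjusted p under 0.05 in naive dura, the list's median was 0.19, and the Ighm difference was 0.93.

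Some resident macrophage genes were higher by small amounts without passing. C1qb, a complement subunit made by macrophages, stood at 11.28, 10.94 and 11.08 in wild type, 11.30, 11.29 and 11.44 in deficient and 11.59, 11.45 and 11.55 in engrafted dura, a difference of 0.34 (adjusted p = 0.11). Of 20 genes 7 were higher at an unadjusted p under 0.05 (35%, beside 7.24% of all genes), 3 had all mutant arrays above wild type (15%, beside 3.56%), 0 passed in limma, and the median was 0.12. The carbonyl reductase gene Cbr2 was higher by 0.38, F13a1, a coagulation factor subunit, by 0.28 and Csf1r, the receptor for the macrophage growth factor, by 0.22. Without the 5 arrays low in Ttr 1 gene had an unadjusted p under 0.05 and the median was 0.01. Without wild type 3 the count was 3 and the median 0.06, without wild type 2 the median was 0.20, and with the choroid plexus score as a covariate it was 0.07. In the stroke mice 12 of the 20 genes had all mutant arrays above wild type (3.71% of all genes) and 3 were higher in the mutants at the threshold (15%), where 0.777% of all genes were.

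Among 35 cytokine and chemokine genes 8 were higher (22.9%, beside 7.24% of all genes) and 1 lower (2.86%, beside 8.35%) at an unadjusted p under 0.05 in naive dura, and 0 passed. All mutant arrays lay above wild type in 1 gene and below in 1 (2.86% each, beside 3.56% and 3.42% of all genes). The count of higher genes was 2 without the 5 arrays low in Ttr and 4 without wild type 3. Ccl8, a chemokine of tissue macrophages, stood at 9.28, 9.48 and 9.08 in wild type and at 9.47 to 10.25 in the mutants, a difference of 0.63 (adjusted p = 0.163). Among the stroke mice it was higher in the mutants by 0.76 (adjusted p = 0.0218). The lower gene was Il1b, the inflammatory cytokine interleukin-1 beta, at 7.08, 7.54 and 7.42 in wild type and 6.56 to 6.92 in the mutants, without overlap (difference -0.62, adjusted p = 0.194). The neutrophil chemoattractant Cxcl1 and the growth factor gene Csf2 were higher by 0.22 and 0.17. The list did not keep the naive direction in the stroke mice, where its median genotype difference was -0.14. There 3 genes passed higher (8.57%, beside 0.777% of all genes) and 5 lower (14.3%, beside 1.54%). All mutant stroke arrays lay below wild type in 9 genes (25.7%, beside 4.5%) and above in 3 (8.57%, beside 3.71%).

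**Figure D3:**
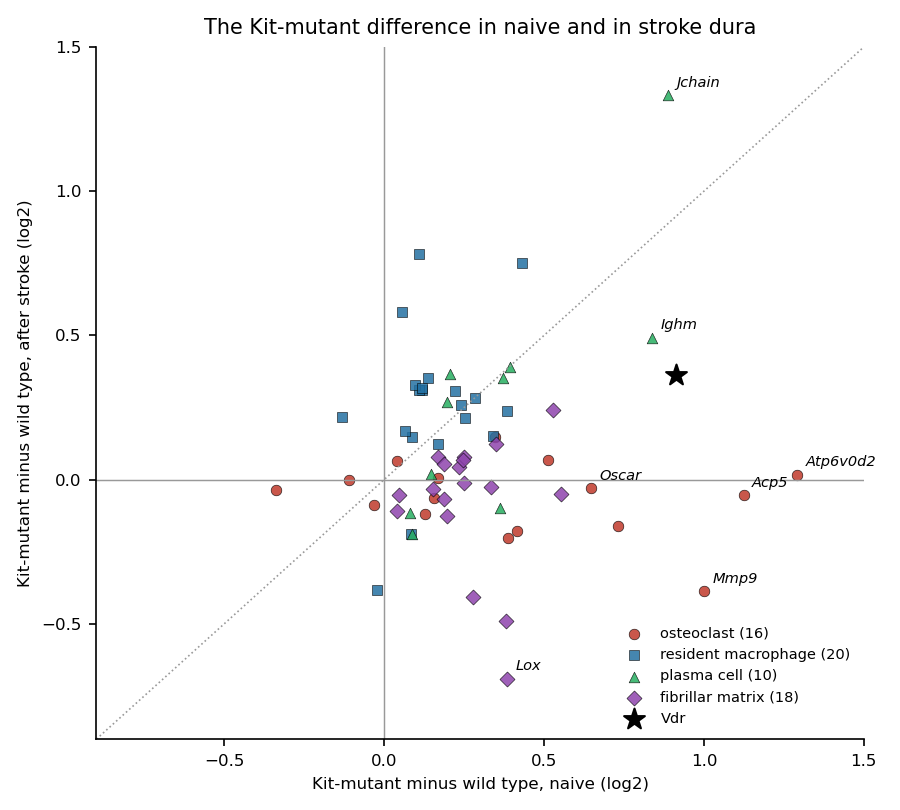
Kit-mutant minus wild-type log2 difference in naive dura (horizontal axis) against that in stroke dura (vertical axis) for genes of 4 lists and Vdr (star); each point is 1 gene, the dotted line marks equal differences, and the axes rest on separate mice. Acp5, Atp6v0d2, Oscar and Mmp9 lie far right, near or below 0 on the vertical axis, while Jchain, Ighm and most macrophage genes lie above it.

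Neutrophil genes were lower on the whole, with a wide spread and 1 exception. Of 17 mature neutrophil genes 9 were lower at an unadjusted p under 0.05, where 8.35% of all genes were, 1 was higher (Mmp9) and 0 passed in limma. The median was -0.32, with -0.47 in deficient and -0.17 in engrafted dura, and it was -0.73 with dim probe sets left out, which leaves fewer genes in the list. In both mutant groups singly 3 genes were lower at an unadjusted p under 0.05, where 2.15% of all genes were. The list mean was 7.855 to 8.156 in wild-type, 7.253 to 7.421 in deficient and 7.556 to 8.108 in engrafted dura. Every engrafted array thus lay above every deficient array, and engrafted 3 lay within the wild-type range. Stfa2, a cystatin-type protease inhibitor, stood at 7.16, 7.83 and 7.12 in wild type and 5.79 to 6.79 in the mutants, a difference of -1.21 (adjusted p = 0.149), and was the only lower gene of the list without overlap. Mmp8, the neutrophil collagenase, differed by -1.30 and Retnlg, a resistin-like protein of neutrophils, by -1.22. For Retnlg the levels were 10.32, 9.38 and 10.29 in wild type, 8.11, 8.67 and 8.43 in deficient and 8.74, 8.58 and 10.15 in engrafted dura. Engrafted 3, one of the arrays low in Ttr, was at the wild-type level. Engrafted minus deficient for Retnlg was 0.76, with an interval of -0.04 to 1.55, so that the arrays do not show whether engraftment altered it. Without the 5 arrays low in Ttr the list still had 9 genes lower at an unadjusted p under 0.05, and its median was -0.37.

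Genes of granulocyte precursors gave a mixed picture. Among 11 genes, 3 that precursors switch on late were lower at an unadjusted p under 0.05 (27.3%, beside 8.35% of all genes). In both mutant groups singly 0 were lower (2.15% of all genes). Chil3 differed by -1.18, Ngp by -1.01 and the lactoferrin gene Ltf by -0.94. Camp, an antimicrobial peptide, differed by -0.34. Genes of the earliest granules were near 0, with differences of -0.01 for the elastase gene Elane, 0.02 for the myeloperoxidase gene Mpo and -0.02 for Prtn3. The median of the list was -0.03, with -0.34 in deficient and 0.09 in engrafted dura, and it was -0.27 with the choroid plexus score as a covariate. The list mean was 7.699 to 7.871 in wild-type, 7.121 to 7.253 in deficient and 7.411 to 8.108 in engrafted dura, so that the mutant groups did not overlap.

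Immediate early genes, which cells switch on within minutes of a stimulus, were lower in part without passing. Of 17 genes 6 were lower at an unadjusted p under 0.05 (35.3%, beside 8.35% of all genes), 3 had all mutant arrays below wild type (17.6%, beside 3.42%), 0 were higher and 0 passed. In both mutant groups singly 1 gene was lower, where 2.15% of all genes were. The median was -0.13, with -0.06 in deficient and -0.19 in engrafted dura. It was -0.02 without wild type 2, -0.07 without the 5 arrays low in Ttr and -0.07 with array weights. Nr4a1, an orphan nuclear receptor, stood at 11.26, 11.38 and 11.23 in wild type, 10.95, 11.36 and 10.11 in deficient and 9.95, 9.91 and 9.90 in engrafted dura. The engrafted arrays were the lowest and deficient 2 lay within the wild-type range. Its pooled difference was -0.93 (adjusted p = 0.149) and engrafted minus deficient -0.89 (adjusted p = 0.917). Its relative Nr4a2 differed by -0.55, the antiproliferative gene Btg2 by -0.37 and the stress factor gene Atf3 by -0.47. Among the stroke mice Atf3 was lower in the mutants, at -0.53 (adjusted p = 0.0377). Fos and Egr1, the best known members, differed by -0.18 and 0.04 in naive dura.

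Kit itself (probe set 10522530) was lower without passing. It stood at 9.41, 9.83 and 9.36 in wild type, 8.98, 8.91 and 9.19 in deficient and 9.19, 9.07 and 9.07 in engrafted dura. All 6 mutant arrays lay below wild type, with differences of -0.51 in deficient and -0.42 in engrafted dura. The pooled difference was -0.47, a level 1.38-fold lower (adjusted p = 0.18). Engrafted minus deficient was 0.09, with an interval of -0.23 to 0.40, although the engrafted arrays hold mast cell transcripts. In the stroke mice the Kit difference was -0.05 (adjusted p = 0.9). A level over the whole gene does not check a point mutation or a protein change. Of 20 genes for the Kit ligand and for receptor signalling, 1 was higher and 1 lower at an unadjusted p under 0.05 (5% each, beside 7.24% and 8.35% of all genes), and 0 passed. Csf1r, a receptor of the same family, is the higher one, the signalling adaptor Sos1 was the lower at -0.15, and Stat5a and Flt3 differed by 0.13 and -0.17. The ligand gene Kitl differed by -0.06 (adjusted p = 0.804).

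The genes beside Kit on its chromosome were examined because neighbours of a mutant locus can be inherited with it. On one side Chic2, Gsx2 and Pdgfra differed by -0.17, 0.05 and -0.04, and on the other Kdr, Srd5a3 and Tmem165 by -0.06, -0.05 and -0.12. The adjusted p were 0.349 to 0.793. Of the 50 measured neighbours, 25 on each side, 2 were higher and 6 lower at an unadjusted p under 0.05. These are shares of 4% and 12%, beside 7.24% and 8.35% of all genes. All mutant arrays lay above wild type in 1 neighbour (2%, beside 3.56% of all genes) and below in 0 (beside 3.42%). In limma 0 passed, and the median was -0.06.

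Melanocyte genes differed in both directions. Dct, an enzyme of melanin synthesis, is not among the list members with the smallest p. It stood at 7.83, 8.11 and 7.76 in wild type, 7.68, 7.02 and 7.30 in deficient and 7.56, 7.53 and 7.20 in engrafted dura. All mutant arrays lay below wild type, and the difference was -0.52 (adjusted p = 0.307). Of 15 genes 3 were lower and 3 higher at an unadjusted p under 0.05 (20% each, beside 8.35% and 7.24% of all genes). In both mutant groups singly 1 was lower and 0 were higher, where 2.15% and 1.73% of all genes were. Of the 15, 0 passed, and the median was -0.04. Gpr143, a melanosome receptor, differed by -0.25 and Ednrb, an endothelin receptor, by -0.19, while the tyrosinase gene Tyr was dim and differed by 0.14, and the channel gene Trpm1 by 0.14. Mlana, Pmel and Tyrp1 differed by 0.21, 0.00 and -0.04.

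Few clock genes differed in naive dura. Of 15 measured, 2 were higher (13.3%, beside 7.24% of all genes) and 1 lower (6.67%, beside 8.35%) at an unadjusted p under 0.05 and 0 passed. Nr1d1, a repressor in the clock loop, stood at 10.67, 10.18 and 10.39 in wild type and at 10.80 to 11.39 in the mutants, a difference of 0.61 (adjusted p = 0.149). Per2 was higher by 0.29, and Nfil3 and Cry1 differed by -0.26 and -0.18. All naive mutant arrays lay above wild type in 1 gene, Nr1d1, and below in 1 (6.67% each, beside 3.56% and 3.42% of all genes). In the stroke mice 4 clock genes passed higher in the mutants (26.7%, beside 0.777% of all genes) and 1 lower (6.67%, beside 1.54%). Times of day are not given in the labels.

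**Figure D4:**
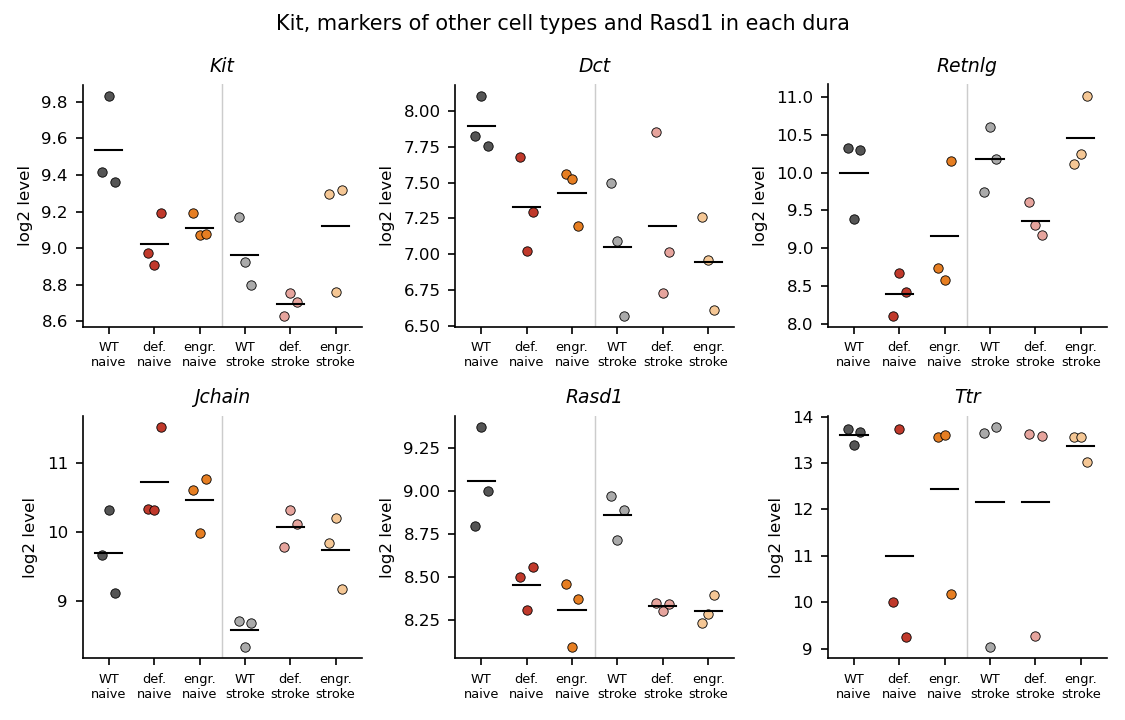
Log2 levels of Kit, Dct, Retnlg, Jchain, Rasd1 and Ttr (vertical axes, array log2 units) in the 18 dura samples; points, bars and group names are as in the plot of osteoclast genes. Kit, Dct and Rasd1 are lower in all 6 naive mutant arrays than in naive wild type, Rasd1 again after stroke, while Ttr is low in 5 arrays of 4 groups.

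The stroke mice give the same genotype comparison in separate animals. There 491 probe sets passed (2.27%), 160 higher and 331 lower. A wider naive set was taken for reading in these mice, chosen after seeing the data: 345 genes (1.73%) higher and 428 (2.15%) lower in both mutant groups at an unadjusted p under 0.05, the mast cell list left out. Of the 345, 27 were higher in the mutants among the stroke mice (7.83%), where 0.777% of all genes were, and 12 were lower (3.48%), where 1.54% were. In 54 (15.7%) all mutant stroke arrays lay above wild type, beside 3.71% of all genes. Of the 428, 11 were lower (2.57%) and 0 higher there, where 1.54% and 0.777% of all genes were, and in 32 (7.48%) all mutant arrays lay below, beside 4.5%. The mean stroke difference had the naive sign in 244 (70.7%) of the higher genes, beside 50.3% of all genes. It did so in 337 (78.7%) of the lower genes, beside 49.7%. The naive and stroke arrays were also fitted apart, so that they share no estimate of the spread. Then 18 of 354 higher genes were higher in the stroke mice too (5.08%, beside 0.316% of all genes) and 7 were lower (1.98%, beside 0.818%). Of 463 lower genes, 7 were lower there (1.51%, beside 0.818%) and 0 were higher (0.316% of all genes).

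The 38 genes that passed in the stroke mice in the direction of the wider naive set were led in naive dura by Jchain, Rasd1 and Ccl8, described above. None of these genes passed in naive dura. The others named here were picked out from this list after their values were seen. Pla2g2d, a secreted phospholipase of lymphoid tissue macrophages, was higher in the mutants by 0.61 in naive (adjusted p = 0.16) and 0.89 in stroke dura. Cd209d, a lectin gene, was higher by 0.55 (adjusted p = 0.132) and 0.60. Gask1a was higher by 0.58 (adjusted p = 0.0883) and 0.76. Gpx3, a secreted glutathione peroxidase, stood at 12.98, 12.58 and 12.70 in naive wild type and at 13.14 to 13.25 in naive mutants, a difference of 0.43 (adjusted p = 0.0675), beside 0.39 among the stroke mice (adjusted p = 0.0153). Serpina3n, an acute-phase protease inhibitor, differed between genotypes by -0.61 in naive and -0.77 in stroke dura (adjusted p = 0.141 and 0.00787). Cebpd, a transcription factor of the acute-phase response, differed by -0.40 and -0.57 (adjusted p = 0.149 and 0.00581). In Pla2g2d, Cd209d, Gpx3, Serpina3n and Cebpd the mutant and wild-type arrays did not overlap in either condition, whereas in naive dura they did in Gask1a. Since the list was chosen by small p in both conditions, this is not separate support. Of the wider naive set, 70.7% of the higher and 63.6% of the lower genes had no overlap in naive dura, beside 3.56% and 3.42% of all genes.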

How the data were processed

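Dura RNA from 18 mice, 3 in each of 6 groups, was hybridised to 1 Affymetrix gene-level array each. The deposited values are log2 summaries for each probe set. The submitters' processing notes list RMA, affy and R 3.0.0 without their roles. No batch or scan date is given in the sources used here, so none was tested. Of 34760 probe sets, 21640 with exactly 1 symbol entered the tests (19937 genes), and 1321 with several symbols and 11799 without annotation did not. RefSeq's GRCm38.p6 table held the identifiers of 21553.

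The model, fitted in limma 3.58.1 under R 4.3.3, held 1 mean for each group over all 18 arrays (12 residual and 3.41 prior degrees of freedom), with Benjamini-Hochberg adjustment over the tested probe sets and a threshold of 0.05. The pooled contrast weights both mutant groups equally. For the 954 genes with several probe sets the brightest stands for the gene. Array number limits precision: the median SE was 0.083. In 5 simulated draws with 200 changed probe sets, 74%, 95.5% and 99.4% of changes of 0.5, 1 and 2 were recovered, with 3.97% false calls. Shared shifts between arrays were not simulated. The adjusted p depends on how many probe sets change, and in the data 2 passed, so these shares do not give the recovery here. Acp5, at 1.12, and Atp6v0d2, at 1.29, did not pass.

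The members and the 42 gene lists were chosen with earlier results of these data known. Genes were named by rule: Kit, Vdr, Ttr and the 5 smallest p in each direction. The rule also took up to 4 members of each described list by p, and 3 neighbours of Kit on each side. Other genes in the text, among them Dct, Tm4sf19 and Jchain, fall outside this rule and are not among the 70 genes refitted. Alternatives were single arrays left out, other normalization, filters and variance models, array weights, a choroid plexus covariate, the arrays low in Ttr left out, a replicate block and a minimum 1.5-fold change. Looser thresholds, list counts under each setting and the wider naive set read in the stroke mice were added after seeing the data. Figures used Python 3.11.15 with matplotlib 3.10.9 and pandas 2.3.3.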

Additional observations from a re-analysis of the deposited data

Results flagged for a closer look

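Among 70 named genes, 5 had 1 naive Kit-mutant array far from the other 5, where chance gives about 1 in 20. The count is not far from that share. Engrafted 3 was the high array for 3 granulocyte genes: Chil3 at 7.23 with the next at 5.91, Ltf at 9.38 with the next at 8.28, and Retnlg at 10.15 with the next at 8.74. Deficient 2 was the low array for 2 osteoclast genes: Atp6v0d2 at 8.76 with the next at 9.32, and Oscar at 7.8 with the next at 8.16. Engrafted 3 was low and deficient 2 high in Ttr, and the part of this in the stray values was not tested.

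The genotype difference itself differed between naive and stroke dura in 88 probe sets by the limma interaction test. Among the named genes, naive minus stroke was 1.39 for Mmp9 (adjusted p = 0.0236), -0.64 for Zkscan2 (adjusted p = 0.0313) and -0.58 for Fmod (adjusted p = 0.0392).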

How the results depend on the processing

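The naive call count (2 probe sets) was 0 with the naive arrays fitted alone, with the choroid plexus covariate and without the 5 arrays low in Ttr. It was 7 over all probe sets of the table, 20 after a second quantile normalization, 49 with array weights, 29 at an adjusted p under 0.10, and 0 to 12 without single arrays (12 without wild type 1, 10 without engrafted 1, 1 without deficient 2 or engrafted 3, 0 without wild type 2 or 3, deficient 1 or engrafted 2). The shared set (1 gene) held 0 genes under the same first 3 settings, 2 with a trended variance, 17 after quantile normalization, 41 with array weights, 23 at an adjusted p under 0.10, 773 by both single differences alone, and 0 to 11 without single arrays (11 without wild type 1, 6 without engrafted 1, 2 without deficient 3, otherwise 0). Of the shared set, 0 genes passed in the stroke mice, against 2 after quantile normalization, 5 with array weights and 0 to 4 without single arrays (4 without naive wild type 1, 2 without naive engrafted 1, otherwise 0). The stroke count of 491 was 238 with the stroke arrays alone, 1318 with array weights, 129 without the low-Ttr arrays, 168 at 1.5-fold, and 152 to 735 without single arrays (152 without wild type 3, 254 without wild type 1, 291 without deficient 2). The interaction count of 88 was 226 with array weights, 15 without the low-Ttr arrays, and 47 to 149 without single arrays, most moved by naive wild type 3 (47), deficient 1 (58), deficient 2 (149) and engrafted 3 (54) and stroke wild type 2 (52) and 3 (54) and deficient 2 (53). The cause was not tested, except that the low-Ttr setting uses fewer arrays.

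Replicate numbers did not pair the arrays: same-numbered arrays correlated at -0.609 to 0.603 in their deviations, and 3 of 18 were closest to their own number. With the replicate block the naive count was 5, the shared set 4 and the interaction count 58.

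Of 1255 refits of 70 named genes, 1206 kept their direction and side of the threshold. Vdr lost its call in 9 and kept its sign in all. Without single arrays, Kdr ran from -0.11 to 0.0254 and Pdgfra from -0.126 to 0.0386, both reversed without wild type 2. Without the low-Ttr arrays, Srd5a3 reversed at 0.0123 and Ttr at 0.0629. The osteoclast count of 9 at an unadjusted p under 0.05 ran from 8 to 12 over all settings.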
